A study of Mus musculus with 18 samples.

Results

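Gene expression in dopamine neurons of the ventral tegmental area (VTA) was compared between mice given MPTP for 10 days and mice given it for 2 days. The arrays were chosen by their titles, which gave 3 arrays per duration and 6 of the 18 arrays of the series, and 18193 named genes were tested. All mice, controls included, were adult C57Bl/6 animals carrying the hTH-GFP transgene, in which human tyrosine hydroxylase sequences drive green fluorescent protein, and all were housed singly for 9 weeks. MPTP was given at 4 mg/kg. Controls received saline for 10 days per the treatment protocol, although the sample descriptions call them untreated. Killing followed 7 days after the last injection in every group, and dopamine neurons of the VTA or of the neighbouring substantia nigra (SN) were then taken by laser capture. The labels do not state how the neurons were recognised, how many mice each array holds, the hour of killing, or whether mice given MPTP for 2 days received saline on other days.

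MPTP is converted by monoamine oxidase B in glia to a charged toxin, which the dopamine transporter carries into dopamine neurons, where it inhibits complex I of the mitochondrial respiratory chain. Dopamine neurons of the VTA project to the ventral striatum and the cortex and are less readily lost after this toxin than those of the SN. The series asks how VTA neurons answer MPTP at the level of transcripts, and the comparison here sets a longer course against a shorter one at the same interval after the last dose.

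Values are log2 signals that are centred on each probe set's own median over the 18 arrays, so 0 is that median and no absolute level is known. The labelled cell type could therefore not be checked through the presence of its markers, only through differences between arrays. A captured sample is a bulk sample, in which fewer cells of a type and less RNA per cell cannot be told apart. Of the 6 arrays compared, array 1 of the 2 day group spread most widely, with a median absolute deviation of 0.399 beside 0.215 to 0.283 for the rest. Over all probe sets, arrays of the same duration correlated at -0.093 to 0.067 and arrays of different durations at -0.117 to 0.068. Same-numbered VTA and SN arrays deviated together at 10 days (r = 0.28 to 0.40) and less evenly at 2 days (r = 0.050 to 0.23), so the SN values given below are not counted as independent support.

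After 10 days of MPTP the signals of Wdfy1, Fbxw17, H2-K1 and AA388235 were higher than after 2 days, and those of Per2 and Plin4 were lower. These 6 genes were called by limma at a Benjamini-Hochberg adjusted p under 0.05, which is 0.0330% of the 18193 genes tested. The 4 genes that rose are 0.0220% and the 2 that fell are 0.0110%. For each of the 6 the arrays of both durations did not overlap, which also held for 929 genes (5.11%) on the higher side and 934 (5.13%) on the lower side. At an unadjusted p under 0.05 there were 1154 genes (6.34%), of which 575 (3.16%) were higher and 579 (3.18%) lower, and the median difference over all genes was 0.0002 on the log2 scale. Without array 1 or array 2 of the 10 day group, or without array 1 of the 2 day group, no gene was called, and without array 3 of the 10 day group only Fbxw17 was. Without array 2 of the 2 day group 3 genes were called, Wdfy1 being the only one of the 6 among them, and without array 3 of that group 5 were, with Wdfy1 and Fbxw17 among them.

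Wdfy1, on chromosome 1, encodes an endosomal protein with a FYVE domain that takes part in Toll-like receptor signalling. Its centred log2 signal was -1.16, -0.82 and -0.89 on the arrays of 2 days and 0.041, -0.017 and 0.21 on those of 10 days. The arrays of 2 days were all low, with no overlap, and the saline arrays, at 0.067, 0.38 and 0.085, lay beside those of 10 days. Wdfy1 rose by 1.03 ± 0.13 on the log2 scale (SE, 3 arrays per group), a 2.05-fold difference (limma, adjusted p = 0.0170). Its 5 probe sets ranged from 0.023 to 2.01, and 3 of them exceeded 1. Against saline the difference was -1.13 after 2 days (limma, adjusted p = 0.00515, one of 2 genes called there, 0.0110% of those tested) and -0.099 after 10 days. Both differences from saline share the saline arrays, and each also shares its MPTP arrays with the comparison of durations.

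Fbxw17, on chromosome 13, encodes an F-box protein with WD repeats and belongs to a mouse family of similar genes, so that its 1 probe set may also bind transcripts of relatives. The signal was -1.11, -0.76 and -0.43 after 2 days and 1.15, 0.76 and 0.43 after 10 days. All 3 arrays of 2 days lay below all 3 of 10 days, and the saline arrays, from -0.082 to 0.29, lay between the groups. Fbxw17 rose by 1.55 ± 0.22 (SE, 3 arrays per group), a 2.92-fold difference (limma, adjusted p = 0.0227). Its differences from saline were -0.86 after 2 days and 0.69 after 10 days.

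H2-K1 encodes the heavy chain of a classical MHC class I molecule, which presents peptides from inside the cell to cytotoxic T cells. The signal was 0.11, -0.41 and -0.12 after 2 days and 1.32, 0.87 and 1.40 after 10 days. Arrays of 10 days were the high ones, and those of 2 days overlapped the saline range of -0.54 to -0.0048. H2-K1 rose by 1.34 ± 0.21 (SE, 3 arrays per group), a 2.53-fold difference (limma, adjusted p = 0.0291). Its 4 probe sets ranged from 0.30 to 2.99, and near-identical class I genes may bind to them, which makes the assignment to H2-K1 uncertain. AA388235 is annotated as a long non-coding RNA on chromosome 17 and neighbours H2-K1, with 0 genes of the RefSeq table between them. It was named after its values were seen. The signal of AA388235 was 0.22, -0.16 and -0.14 after 2 days and 1.11, 0.97 and 1.65 after 10 days. Again only the arrays of 10 days were high, and saline lay between -0.21 and -0.083. AA388235 rose by 1.27 ± 0.20 (SE, 3 arrays per group), a 2.41-fold difference (limma, adjusted p = 0.0291), with its 2 probe sets at 1.09 and 1.45. Against saline the genes H2-K1 and AA388235 were the 2 called after 10 days (0.0110% of those tested), at 1.39 and 1.37 (limma, adjusted p = 0.0454 for each), and after 2 days they were at 0.057 and 0.10.

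Per2, on chromosome 1, encodes a repressor of the circadian clock. The signal was 0.91, 0.61 and 0.61 after 2 days and -0.60, -0.40 and -0.29 after 10 days. The groups did not overlap, and the saline arrays, at -0.036, -0.40 and 0.43, lay below all arrays of 2 days, with 1 of them inside the range of 10 days. Per2 fell by 1.14 ± 0.17 (SE, 3 arrays per group), a 2.20-fold difference (limma, adjusted p = 0.0291), and its 3 probe sets ranged from -1.58 to -0.41.

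Plin4, on chromosome 17, encodes perilipin 4, a coat protein of lipid droplets. The signal was 0.49, 0.57 and 1.18 after 2 days and -1.25, -1.11 and -0.68 after 10 days. Arrays of 2 days were high and those of 10 days low, with saline at -0.41, 0.10 and -0.67 between them. Plin4 fell by 1.76 ± 0.27 (SE, 3 arrays per group), a 3.39-fold difference on 1 probe set (limma, adjusted p = 0.0291). Relative to saline it was at 1.07 after 2 days and at -0.69 after 10 days.

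**Figure D1:**
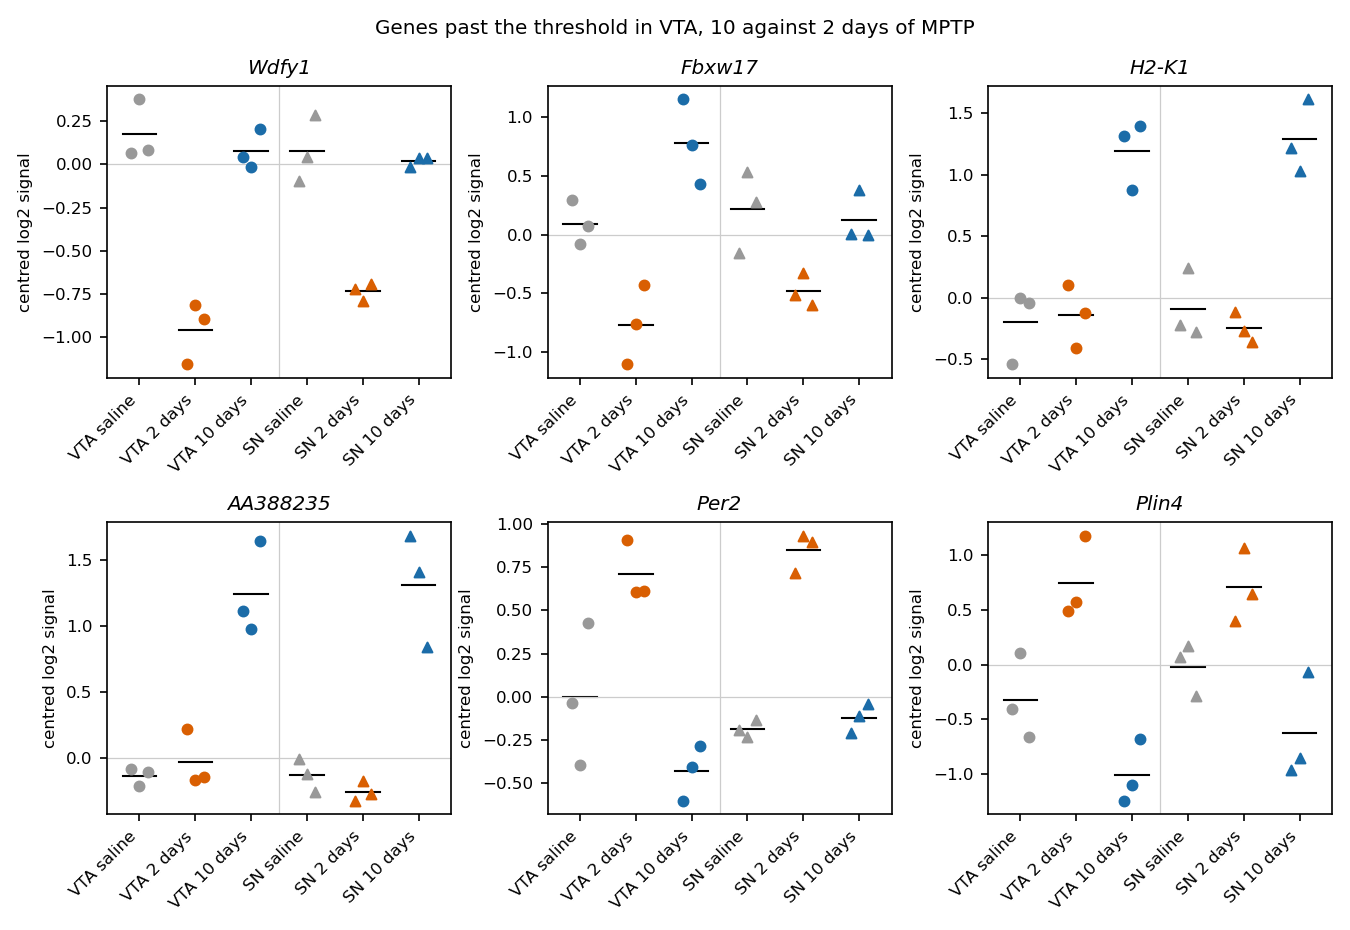
Centred log2 signal (vertical axes) of the 6 called genes on each array of the VTA and the SN, by treatment, with horizontal bars at group means of 3 arrays. In the VTA the arrays of 10 and 2 days do not overlap for any of the 6, and Wdfy1 is low only on the arrays of 2 days while H2-K1 and AA388235 are high only on those of 10 days.

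Plotted array by array, the 6 genes differed in where saline lay. For Wdfy1 the saline arrays overlapped those of 10 days, and for H2-K1 and AA388235 they overlapped those of 2 days. For Fbxw17, Plin4 and Per2 the saline mean lay between the means of both durations, with 1 saline array of Per2 inside the range of 10 days.

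Further genes without overlap between durations came close to the threshold without passing it, when tested as the mean of their probe sets. Among those that were lower after 10 days, Fmo2, which encodes a flavin-containing monooxygenase, had signals of 1.03, 0.67 and 0.49 after 2 days and -0.30, -0.22 and -0.25 after 10 days. Its difference was -0.99 ± 0.17 (SE, limma, adjusted p = 0.0596), and its 5 probe sets ranged from -2.11 to 0.072. Hspa1b encodes an inducible HSP70 chaperone, and its signals were 1.25, 0.78 and 1.29 after 2 days and -0.098, -0.28 and -0.37 after 10 days. The arrays of 2 days were high, and the saline arrays (-0.58 to 0.0086) covered those of 10 days, with a difference of -1.36 ± 0.24 (SE, limma, adjusted p = 0.0638). The near-identical Hspa1a may share probes with it. The probe sets of Hspa1b ranged from -1.543 to -1.065, and the lowest passed when probe sets were tested singly (limma, adjusted p = 0.0149). E4f1, a transcriptional regulator and ubiquitin ligase gene, was at -1.36 (limma, adjusted p = 0.0638), Zbtb40, a zinc finger gene, at -0.89 and Nfya, which encodes a subunit of the CCAAT box binding factor NF-Y, at -0.78 (limma, adjusted p = 0.0830 for each of these 2).

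Among genes that were higher after 10 days without passing, Litaf, which encodes a membrane protein of late endosomes and lysosomes, had signals of -0.82, -0.62 and -0.77 after 2 days and 0.51, 0.13 and 0.27 after 10 days. As with Wdfy1, the arrays of 2 days were low and the saline arrays (0.014 to 0.41) overlapped those of 10 days, with a difference of 1.04 ± 0.18 (SE, limma, adjusted p = 0.0638). Adgrg1, an adhesion G protein-coupled receptor gene, was at 0.97 ± 0.18 (SE, limma, adjusted p = 0.0830). Its arrays of 2 days, at -1.01, -0.75 and -0.33, also lay below saline (0.088 to 0.44).

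Of the 13 genes with an adjusted p under 0.1, 6 lie on chromosome 17, namely Plin4, H2-K1, AA388235, Hspa1b, E4f1 and Nfya, beside 4.62% of all tested genes with a known chromosome (839 of 18145). Up to an adjusted p of 0.2 the same count was 9 of 16, with H2-D1, H2-Q2 and Amdhd2 added. Over all genes of the chromosome the median difference was 0.0048, and 74 of them (8.82%) had an unadjusted p under 0.05, beside 6.34% of all genes tested. The share on chromosome 17 was noticed after the values were seen and is given as a description.

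Genes that respond to glucocorticoid hormone, which is released from the adrenal cortex under stress and acts through the glucocorticoid receptor, were mostly lower after 10 days. Of 19 measured members 17 were lower, whereas 50.1% of all genes were higher, and the median difference was -0.39. Plin4 alone passed the test, and 9 members had an unadjusted p under 0.05, all lower, beside 3.18% of all genes. The mean over the members was 0.079 to 0.24 on the arrays of 2 days, -0.35 to -0.22 on those of 10 days and -0.12 to 0.25 on saline arrays. Saline arrays thus overlapped those of 2 days, and all arrays of 10 days lay below both groups. With 1 array left out the median ran from -0.51 to -0.28. Because Plin4, Fmo2 and Per1 lead other lists or the table of genes, the 16 other members were also described alone. Of these, 14 were lower, with a median of -0.31. The list was chosen with earlier results of these data known, so neither count is independent support.

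Sult1a1, which encodes a phenol sulfotransferase, had signals of -0.037, 0.55 and 0.41 after 2 days and -1.33, -1.46 and -0.30 after 10 days, a difference of -1.34 ± 0.43 (SE, limma, adjusted p = 0.606). Its groups did not overlap, but 2 saline arrays lay with those of 2 days and 1 with those of 10 days. Sgk1, the kinase gene named for serum and glucocorticoid induction, was at -0.38, 0.94 and 0.49 after 2 days and -0.50, -0.25 and -0.69 after 10 days, and the groups overlapped. Its difference was -0.83 ± 0.35 (SE, limma, adjusted p = 0.746). Fkbp5, which encodes a co-chaperone that restrains the receptor, was at -0.41 ± 0.22, and Tsc22d3, the gene of the leucine zipper protein GILZ, at -0.40 ± 0.17 (SE). The receptor gene Nr3c1 was at -0.14. Mertk, a phagocytic receptor gene, and Zbtb16, a zinc finger gene, were at -0.75 ± 0.26 and -0.54 ± 0.20 (SE). Sult1a1, Sgk1, Fkbp5, Tsc22d3, Mertk and Zbtb16 were named after their values were seen.

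The clock genes encode a feedback loop in which the PER and CRY proteins repress the activators CLOCK and BMAL1. Of 21 measured members 15 were lower after 10 days, with a median difference of -0.13. Without array 1 of the 2 day group the median was -0.088. An unadjusted p under 0.05 was reached by 5 members, all lower, beside 3.18% of all genes, and of these 5 Per2 passed. Per1, the paralogue of Per2, had signals of 1.13, 0.43 and 0.0043 after 2 days and 0.024, -0.63 and -0.48 after 10 days, and the groups overlapped. Its difference was -0.89 ± 0.33 (SE, limma, adjusted p = 0.703). Cry1, a cryptochrome gene, was at 0.40, 0.27 and 0.53 after 2 days and at -0.082, -0.22 and -0.16 after 10 days, a difference of -0.55 ± 0.21 (SE, limma, adjusted p = 0.703). Here the groups did not overlap, and the saline arrays (-0.22 to 0.0086) lay with those of 10 days. Per3 was at -0.34 ± 0.14 and the repressor gene Nr1d2 at -0.34 ± 0.15 (SE). The activators Clock and Arntl, the latter encoding BMAL1, were at -0.084 and -0.051, and Nr1d1 was at 0.18. The mean over the list was 0.058 to 0.098 on arrays of 2 days, -0.17 to -0.085 on those of 10 days and -0.069 to -0.027 on saline arrays, with no overlap among the 3 groups. Cry1, Per3 and Nr1d2 were named after their values were seen.

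Promoter sequences were looked at for Per1 and Cry1 because both hold an E-box, the letters CACGTG to which CLOCK and BMAL1 bind. They are shown 5′ to 3′ on the gene's strand over the 250 bases before the start, from RefSeq on GRCm38.p6, with the match in capitals. Per1 is on the plus strand at chr11:69098699-69098948 and Cry1 on the minus strand at chr10:85185055-85185304.
Per1: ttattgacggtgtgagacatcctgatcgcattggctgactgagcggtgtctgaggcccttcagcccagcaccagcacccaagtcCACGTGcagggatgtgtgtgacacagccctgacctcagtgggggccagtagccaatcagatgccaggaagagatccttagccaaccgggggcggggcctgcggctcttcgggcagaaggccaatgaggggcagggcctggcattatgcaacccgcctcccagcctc
Cry1: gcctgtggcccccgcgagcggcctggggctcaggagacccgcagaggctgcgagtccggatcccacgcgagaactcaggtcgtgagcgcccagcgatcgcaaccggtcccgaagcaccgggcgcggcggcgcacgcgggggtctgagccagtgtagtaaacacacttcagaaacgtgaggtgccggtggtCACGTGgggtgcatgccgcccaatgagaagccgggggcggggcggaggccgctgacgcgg
The E-box starts 166 bases before the start of Per1 and 60 bases before that of Cry1. Searched on both strands, it was present in 1854 of 27025 promoters of this length (6.86%) and in 5 of the 18 clock genes with a promoter entry. Of the 4 with an entry among those lower at an unadjusted p under 0.05, Per1 and Cry1 held it. For the glucocorticoid-responsive genes the half-site pair ACANNNTGT was present in 3 of 17 promoters, of which Sgk1 was among the lower genes, and in 6.76% of all promoters.

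Heat shock chaperones refold damaged proteins and are induced through the factor HSF1. Of 23 measured members 17 were lower after 10 days, with a median difference of -0.11. An unadjusted p under 0.05 was reached by 5 members, all lower, beside 3.18% of all genes, with 0 passing as the mean of their probe sets. The mean over the members was 0.089 to 0.12 on arrays of 2 days, -0.14 to -0.078 on those of 10 days and -0.044 to -0.0031 on saline arrays. On this mean the 3 groups did not overlap, with 2 days highest and 10 days lowest. Beside Hspa1b, the small chaperone gene Hspb1 had signals of 0.50, -0.24 and 0.070 after 2 days and -1.14, -1.04 and -0.18 after 10 days, which overlapped. Its difference was -0.90 ± 0.27 (SE, limma, adjusted p = 0.564). Hspa1a was at -0.86 ± 0.34, Dnajb1, which encodes an HSP40 partner of HSP70, at -0.46 ± 0.15, and Cryab, the gene of alpha-B crystallin, at -0.32 ± 0.13 (SE). These last 3 genes were named after their values were seen.

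The unfolded protein response raises chaperones of the endoplasmic reticulum when proteins misfold there. Of 28 measured members 17 were lower after 10 days, with a median of -0.12. An unadjusted p under 0.05 was reached by 7 members, all lower, beside 3.18% of all genes, with 0 passing. Without array 2 of the 10 day group the median was -0.046. The mean over the members was -0.046 to 0.11 on arrays of 2 days and -0.16 to -0.044 on those of 10 days, so the groups overlapped slightly, with saline at -0.053 to 0.077. Hspa5 encodes BiP, the main HSP70 of the endoplasmic reticulum, and its signals were 0.16, 0.29 and 0.29 after 2 days and -0.28, -0.36 and -0.16 after 10 days. The groups did not overlap, and the saline arrays (0.051 to 0.18) lay with or just below those of 2 days, with a difference of -0.52 ± 0.12 (SE, limma, adjusted p = 0.289). Sdf2l1, which encodes a partner of BiP, had signals of 0.27, 0.68 and 1.02 after 2 days and -0.41, -0.78 and -0.0073 after 10 days. Its difference was -1.06 ± 0.23 (SE, limma, adjusted p = 0.240), again without overlap. Creld2, which encodes a protein of the endoplasmic reticulum, was at 0.24, 0.16 and 0.35 after 2 days and -0.33, -0.41 and -0.51 after 10 days, a difference of -0.66 ± 0.17 (SE, limma, adjusted p = 0.431). The disulfide isomerase gene Pdia4 was at -0.60 ± 0.15, Xbp1, which encodes a transcription factor of the response, at -0.56 ± 0.22, the secreted factor gene Manf at -0.47 ± 0.15, and Herpud1, of the degradation machinery, at -0.43 ± 0.16 (SE). Of the sensors, Ern1 was at 0.089, Eif2ak3 at 0.10 and Atf6 at -0.12. Of the other factors, Ddit3 was at -0.33 and Atf4 at -0.036. Creld2, Pdia4, Xbp1 and Herpud1 were named after their values were seen.

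Promoters that hold the motif of each response are shown for 2 of the lower genes apiece, in the same layout and from the same source. For the unfolded protein response the ER stress element, CCAAT and CCACG with any 9 bases between them, is in capitals, on the plus strand for Hspa5 at chr2:34771840-34772089 and for Creld2 at chr15:88819396-88819645, where the match reads on the opposite strand. For heat shock the core GAANNTTC is in capitals, in Hspa1b on the minus strand at chr17:34959239-34959488 and in Hspb1 on the plus strand at chr5:135887669-135887918.
Hspa5: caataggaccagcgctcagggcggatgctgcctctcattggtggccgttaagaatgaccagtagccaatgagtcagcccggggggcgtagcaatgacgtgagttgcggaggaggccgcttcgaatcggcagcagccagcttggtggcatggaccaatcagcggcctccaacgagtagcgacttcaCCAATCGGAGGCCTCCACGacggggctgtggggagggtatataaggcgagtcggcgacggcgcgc
Creld2: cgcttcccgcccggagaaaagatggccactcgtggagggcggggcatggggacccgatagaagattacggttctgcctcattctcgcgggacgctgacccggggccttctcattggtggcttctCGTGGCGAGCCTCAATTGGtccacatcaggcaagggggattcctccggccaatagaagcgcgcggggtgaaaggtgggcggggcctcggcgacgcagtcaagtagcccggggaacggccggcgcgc
Hspa1b: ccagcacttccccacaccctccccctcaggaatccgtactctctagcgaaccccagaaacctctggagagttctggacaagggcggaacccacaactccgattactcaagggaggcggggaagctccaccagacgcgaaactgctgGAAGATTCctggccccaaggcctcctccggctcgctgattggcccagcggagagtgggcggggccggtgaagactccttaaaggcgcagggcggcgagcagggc
Hspb1: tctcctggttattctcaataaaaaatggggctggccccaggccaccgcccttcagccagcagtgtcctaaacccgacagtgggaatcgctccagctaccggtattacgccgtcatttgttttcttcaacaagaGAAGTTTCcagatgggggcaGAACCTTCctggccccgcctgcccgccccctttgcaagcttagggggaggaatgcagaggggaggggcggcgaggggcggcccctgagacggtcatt
The ER stress element starts 65 bases before the start of Hspa5 and 126 bases before that of Creld2, and the heat shock core starts 104 bases before the start of Hspa1b and 117 and 97 bases before that of Hspb1. On either strand the ER stress element was present in 35 of 27025 promoters (0.13%) and in 8 of the 25 members of the response with a promoter entry. Among the members that were lower at an unadjusted p under 0.05, 2 of 6 with an entry held it, Hspa5 and Creld2, while Calr and Canx, which also held it, were at 0.042 and 0.043. The heat shock core was present in 7.73% of all promoters and in 8 of 18 chaperone genes, among them 3 of the 4 lower ones with an entry, Hspa1a, Hspa1b and Hspb1. The last 5 letters of the ER stress element share CACG with the E-box, so these motifs can overlap. A match describes the sequence and does not show that a factor bound there.

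**Figure D2:**
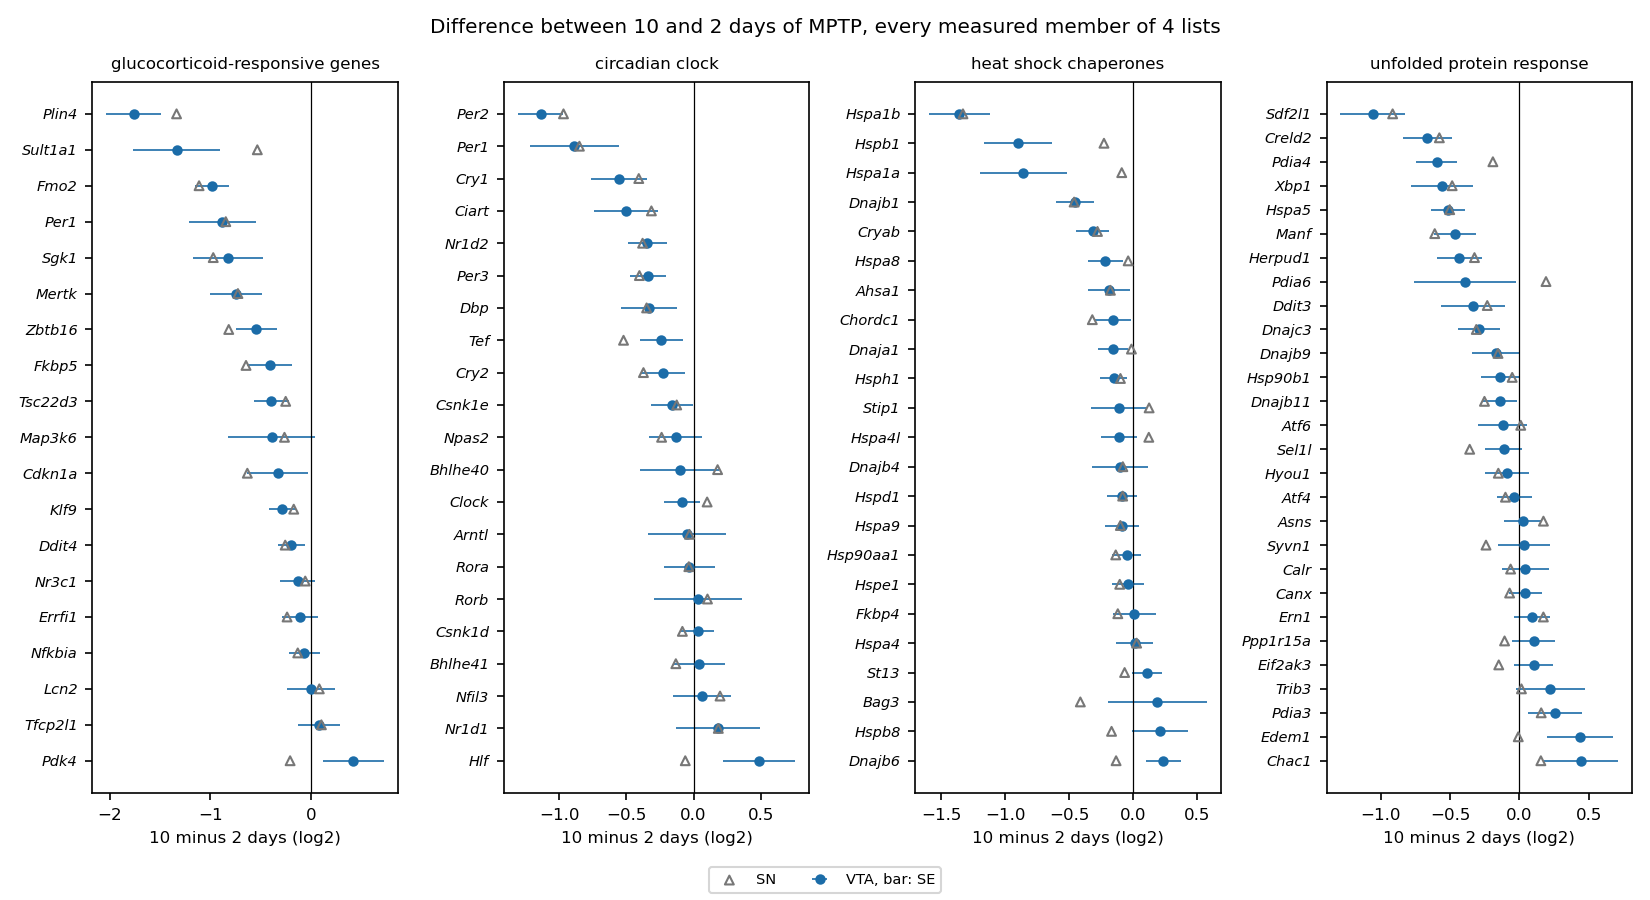
Difference between 10 and 2 days of MPTP on the log2 scale (horizontal axes) for every measured member of the glucocorticoid, clock, heat shock and unfolded protein lists, in the VTA (circles, bars ± SE, 3 arrays per group) and the SN (triangles). In the VTA 17 of 19, 15 of 21, 17 of 23 and 17 of 28 members lie below 0.

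The plot of all members shows the glucocorticoid list spread along the lower side, while the clock, heat shock and unfolded protein lists each hold a few low members beside many nearer 0. The mean of all genes on the same arrays lay between -0.021 and 0.034.

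MHC class I and antigen processing genes were mostly on the higher side. Of 13 measured members 9 were higher after 10 days, with a median of 0.32. An unadjusted p under 0.05 was reached by 4 members, all higher, beside 3.16% of all genes, and of these 4 H2-K1 passed. With 1 of the 6 arrays left out the median ran from 0.15, without array 3 of the 10 day group, to 0.31. H2-D1, the other classical class I gene measured, had signals of -0.025, -0.19 and -0.16 after 2 days and 0.64, 0.56 and 0.83 after 10 days. The groups did not overlap, and its difference was 0.80 ± 0.16 (SE, limma, adjusted p = 0.131), while its 9 probe sets ranged from -0.23 to 2.49. The highest, at 2.494 and 2.485, passed when probe sets were tested singly (limma, adjusted p = 0.0219 and 0.0275), while others lay near 0. H2-Q2, a class Ib gene, was at -0.37, -0.19 and -0.17 after 2 days and 1.54, 0.74 and 0.36 after 10 days, with a difference of 1.12 ± 0.22 (SE, limma, adjusted p = 0.144). As for H2-K1, related class I genes may bind to the probes of H2-D1 and H2-Q2, so these are not counted as separate evidence. Psmb8, the immunoproteasome subunit that trims peptides for class I, was at 0.54 ± 0.23 (SE). The other immunoproteasome subunit genes Psmb9 and Psmb10 were at -0.16 and -0.010. Of the further processing genes, Tapbp and Erap1 were at -0.13 and -0.27, and these 4 were the lower members. The mean over the list was -0.27 to -0.063 on arrays of 2 days, 0.15 to 0.46 on those of 10 days and -0.16 to 0.072 on saline arrays.

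Interferon-stimulated genes, many of which act together with class I presentation in antiviral defence, did not share one direction. Of 22 measured members 14 were higher, the median was 0.074, and it turned to -0.020 without array 3 of the 10 day group. Oas1a, an oligoadenylate synthetase gene, was at 0.86 ± 0.25 and Irf9, a factor of the interferon response, at -0.64 ± 0.29 (SE). Microglia, which also express class I genes, lie beside neurons in this tissue. Of 17 microglial markers 12 were higher after 10 days, with a median of 0.13 (0.048 to 0.27 with 1 array left out). An unadjusted p under 0.05 was reached by 4 markers, all higher, beside 3.16% of all genes. These markers included the leukocyte gene Ptprc (0.63 ± 0.25) and the cathepsin gene Ctss (0.61 ± 0.24, SE). The mean over the 17 markers was -0.40 to -0.014 on arrays of 2 days and -0.19 to 0.31 on those of 10 days. On this mean the groups overlapped. The part of microglia in the class I values was not tested.

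Genes of dopamine synthesis, storage and uptake had higher central values after 10 days, but none stood out from the spread between arrays. Of 11 measured members 9 were higher and the median was 0.38, with 0 at an unadjusted p under 0.05. Th, which encodes the rate-limiting enzyme tyrosine hydroxylase, had signals of -0.81, 0.46 and -0.77 after 2 days and -0.32, 0.12 and 1.07 after 10 days. The groups overlapped, the saline arrays spread as widely (-0.90, 1.01 and 1.15), and the difference was 0.66 ± 0.52 (SE, limma, adjusted p = 0.900). Slc6a3, the gene of the dopamine transporter through which the toxin enters, was at -1.09, 0.11 and -0.30 after 2 days and -0.35, -0.16 and 0.38 after 10 days, a difference of 0.38 ± 0.37 (SE, limma, adjusted p = 0.924). Array 1 of the 2 day group was the lowest of the 6. Ddc, the decarboxylase gene, was at 0.34 ± 0.31 and the vesicular transporter gene Slc18a2 at 0.41 ± 0.43 (SE). Without array 1 of the 2 day group Slc18a2 was at -0.036 and the list's median was 0.051. With any other array left out that median reached up to 0.57.

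The mean over other genes that mark dopamine neurons was also lowest on array 1 of the 2 day group, at -0.74, though not every member was. Of 20 measured members 16 were higher after 10 days, with a median of 0.41 that was 0.18 without array 1 of the 2 day group. At an unadjusted p under 0.05 there was 1 member, which was higher, beside 3.16% of all genes. It was Tacr3, the neurokinin 3 receptor gene. Its signals were 0.052, 0.23 and -0.78 after 2 days and 0.80, 0.36 and 1.42 after 10 days. These did not overlap, saline lay at 0.75 to 1.34, and the difference was 1.02 ± 0.36 (SE, limma, adjusted p = 0.671). Chrna6, a nicotinic receptor subunit gene, was at -2.06, -0.094 and -0.85 after 2 days and -0.26, -0.12 and 0.74 after 10 days, a difference of 1.12 ± 0.54 (SE, limma, adjusted p = 0.806), and the groups overlapped. Of 14 transcription factors of these neurons 11 were higher, with a median of 0.12 (0.12 to 0.23 with 1 array left out). Foxa1 was at 0.69 ± 0.30 and Pitx3 at 0.33 ± 0.17 (SE). Since levels are unknown, these differences do not test the label of dopamine neurons.

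**Figure D3:**
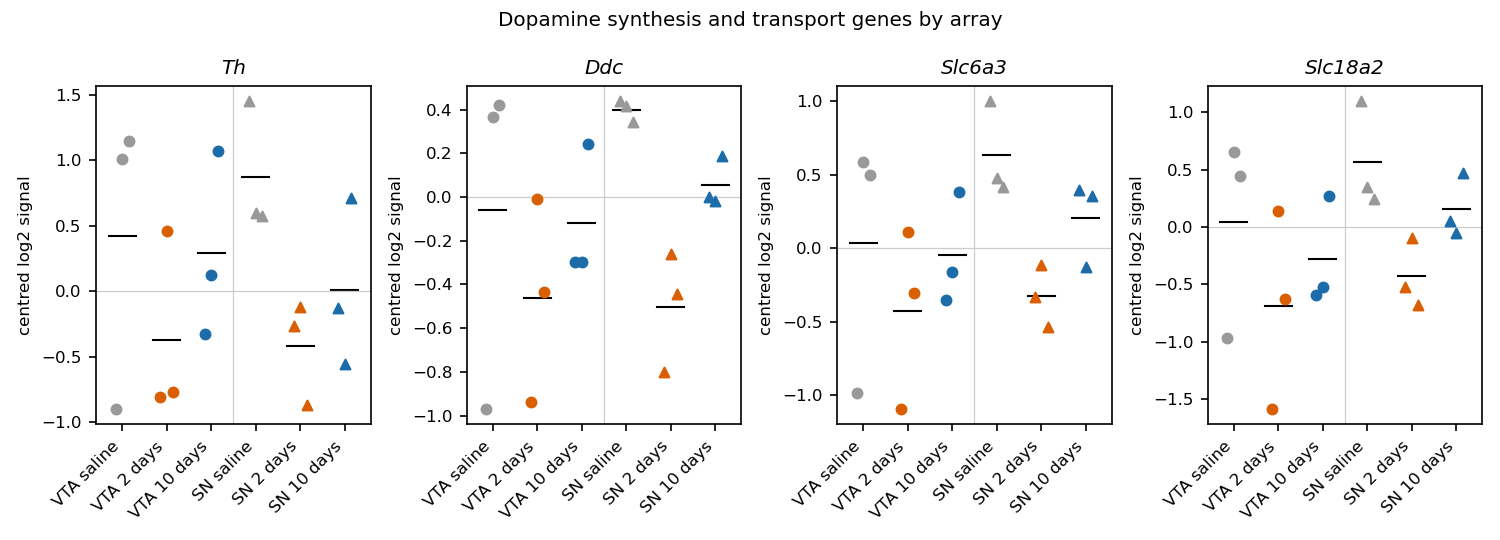
Centred log2 signal (vertical axes) of Th, Ddc, Slc6a3 and Slc18a2 on each array of the VTA (circles) and the SN (triangles), with horizontal bars at group means of 3 arrays. The arrays of 10 and 2 days overlap in the VTA for each of the 4 genes, and saline array 1 of the VTA lies near the lowest arrays of 2 days.

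In the plot of dopamine genes the lowest VTA arrays were the first of the 2 day group and the first of the saline group. For Th they stood at -0.81 and -0.90, and for Slc6a3 at -1.09 and -0.98.

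Mitochondrial genes differed little. Complex I, the target of the toxin, had 34 measured subunits, of which 20 were lower, with a median of -0.016 whose sign turned without array 2 of the 10 day group or array 3 of the 2 day group. Of the 37 genes of complexes II to V 33 were lower, with a median of -0.081 (-0.11 to -0.049 with 1 array left out) and 0 at an unadjusted p under 0.05. Their mean was 0.025 to 0.036 on arrays of 2 days and -0.094 to 0.00029 on those of 10 days, without overlap. Saline, at -0.041 to 0.10, spanned the range of 2 days and overlapped only the upper part of that of 10 days. Uqcrc2, a core subunit of complex III, was at -0.21 ± 0.11 and Cyc1, its cytochrome subunit gene, at -0.22 ± 0.13 (SE). Of 34 proteasome subunits 26 were lower, with a median of -0.076 (-0.10 to -0.035 with 1 array left out). Antioxidant and NRF2 target genes had a median of -0.042 (-0.066 to -0.0012 with 1 array left out) over 24 members, 16 of them lower, and Txnrd1, a thioredoxin reductase gene, was at -0.37 ± 0.14 (SE). Familial Parkinson disease genes had a median of -0.0058 over 13 measured members.

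Cholesterol and fatty acid synthesis genes were mostly on the higher side. Of 25 measured members 21 were higher after 10 days, with a median of 0.11. Without array 3 of the 10 day group the median was 0.019. An unadjusted p under 0.05 was reached by 3 members, all higher, beside 3.16% of all genes. Hsd17b7, an enzyme gene of the late cholesterol pathway, had signals of -0.29, -0.44 and -0.16 after 2 days and -0.070, 0.51 and 0.50 after 10 days, a difference of 0.61 ± 0.16 (SE, limma, adjusted p = 0.437). The groups did not overlap, with 2 of the 10 day arrays well above all the others. Dhcr7, of the last step to cholesterol, was at 0.43 ± 0.17 (SE).

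Immediate early genes, which neurons transcribe within minutes of activity, had a median of -0.18, with 17 of 23 lower. Leaving out the first array of 2 days gave a median of -0.36, and leaving out the third gave -0.11. Their mean was -0.20 to 0.36 on arrays of 2 days and -0.13 to -0.067 on those of 10 days, so the groups overlapped. Npas4, an activity-dependent factor gene, was at -0.78 ± 0.35 and Nr4a1, an orphan nuclear receptor gene, at -0.48 ± 0.26 (SE), neither of which passed.

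Marker lists of other cells had medians as far from 0 as several of these lists. Endothelial and pericyte markers had the highest median of the marker lists at 0.34, with 15 of 18 higher. At an unadjusted p under 0.05 there were 3 higher and 1 lower, beside 3.16% and 3.18% of all genes. The lower one was the glucose transporter gene Slc2a1 at -0.31 ± 0.14 (SE). Leaving out array 3 of 10 days gave the markers a median of 0.16. Their mean was -0.48 to -0.034 on arrays of 2 days and -0.32 to 0.30 on those of 10 days, and the groups overlapped. Esam, an endothelial adhesion gene, was at 0.63 ± 0.26 (SE). Oligodendrocyte markers had a median of 0.22 over 14 members, which was -0.016 without array 2 of the 2 day group. Astrocyte markers had a median of 0.092 (0.054 to 0.13 with 1 array left out) over 18 members, and among them Fabp7, a fatty acid binding protein gene, was at 0.97 ± 0.24 (SE, limma, adjusted p = 0.363). The part of other cells in the differences between durations was not tested. Ependymal and choroid plexus markers had a median of 0.013 over 14 members, and their sign turned when any of 3 arrays was left out. Capsl, a cilium-associated gene among them, was at 0.62, 0.96 and 1.56 after 2 days, 0.15, -0.37 and -0.35 after 10 days and -2.08, -1.48 and -0.73 on saline arrays. Its 3 groups did not overlap. Capsl was at -1.24 ± 0.37 between durations (SE, limma, adjusted p = 0.564) and at 2.48 after 2 days against saline (limma, adjusted p = 0.0414), the other gene called there.

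**Figure D4:**
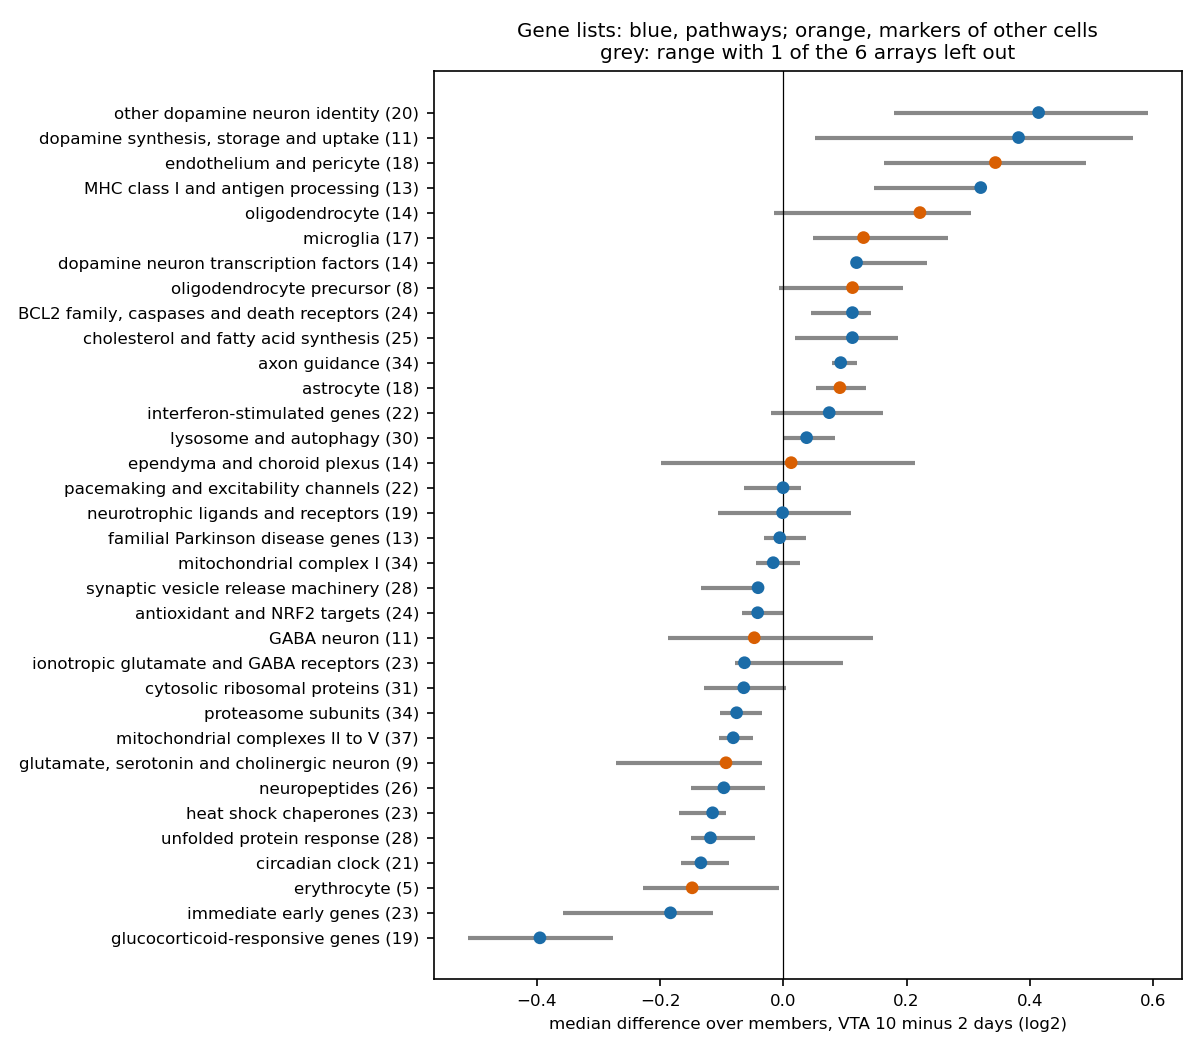
Median difference between 10 and 2 days of MPTP on the log2 scale (horizontal axis) for each list of genes in the VTA (blue, pathways and functions; orange, markers of other cells), with horizontal lines for the range when each of 6 arrays was left out, and the number of measured members in parentheses. Glucocorticoid-responsive genes have the lowest median at -0.39, and other dopamine neuron identity genes the highest at 0.41 with a range from 0.18 to 0.59.

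Set side by side, the medians of the lists covered -0.39 to 0.41, and the 6 lists with the widest ranges on leaving out an array were those of dopamine neurons and of other cell types.

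The same comparison in the SN, which shares no array with that in the VTA, called 3 genes (0.0165%), with 549 (3.02%) at an unadjusted p under 0.05. The 6 genes called in the VTA lay in the same direction in the SN. H2-K1 and AA388235 passed there too, at 1.54 and 1.56 (limma, adjusted p = 0.0135 for each), and the third gene called there was Fmo2 at -1.11 (limma, adjusted p = 0.0351). Wdfy1 was at 0.75 and Per2 at -0.97 in the SN (limma, adjusted p = 0.106 for each). For Wdfy1 the SN arrays of 2 days, at -0.72, -0.79 and -0.69, were again the low ones, with saline at -0.096, 0.045 and 0.29. Plin4 was at -1.34 and Fbxw17 at 0.61 in the SN. Of the 21 genes named as leading in the VTA, all 21 had the same direction in the SN and 18 were smaller there, but they were chosen by their VTA values.

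The difference between the regions' own differences was tested for every gene, and 0 of 18193 passed (0% by limma), with 349 (1.92%) at an unadjusted p under 0.05 and a smallest adjusted p of 0.9999. Each alternative setting also gave 0. The main fit took VTA and SN arrays as independent, although same-numbered ones deviated together. That 0 genes passed does not show that the differences were equal in both regions. Fbxw17 differed between regions only before adjustment (unadjusted p = 0.00768 from limma). Vcpkmt, a lysine methyltransferase gene, was at -0.51 in the VTA and 0.36 in the SN, and the metalloprotease gene Amz1 at -0.78 and 0.065. In the other direction the transcription factor gene Nfia was at 0.48 in the VTA and -0.24 in the SN, and Ccrl2, a chemokine receptor-like gene, at 0.68 and -0.24. None of these 4 passed. Over lists, the median for astrocyte markers was 0.092 in the VTA and -0.10 in the SN, and that for glucocorticoid-responsive genes -0.39 and -0.27.

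**Figure D5:**
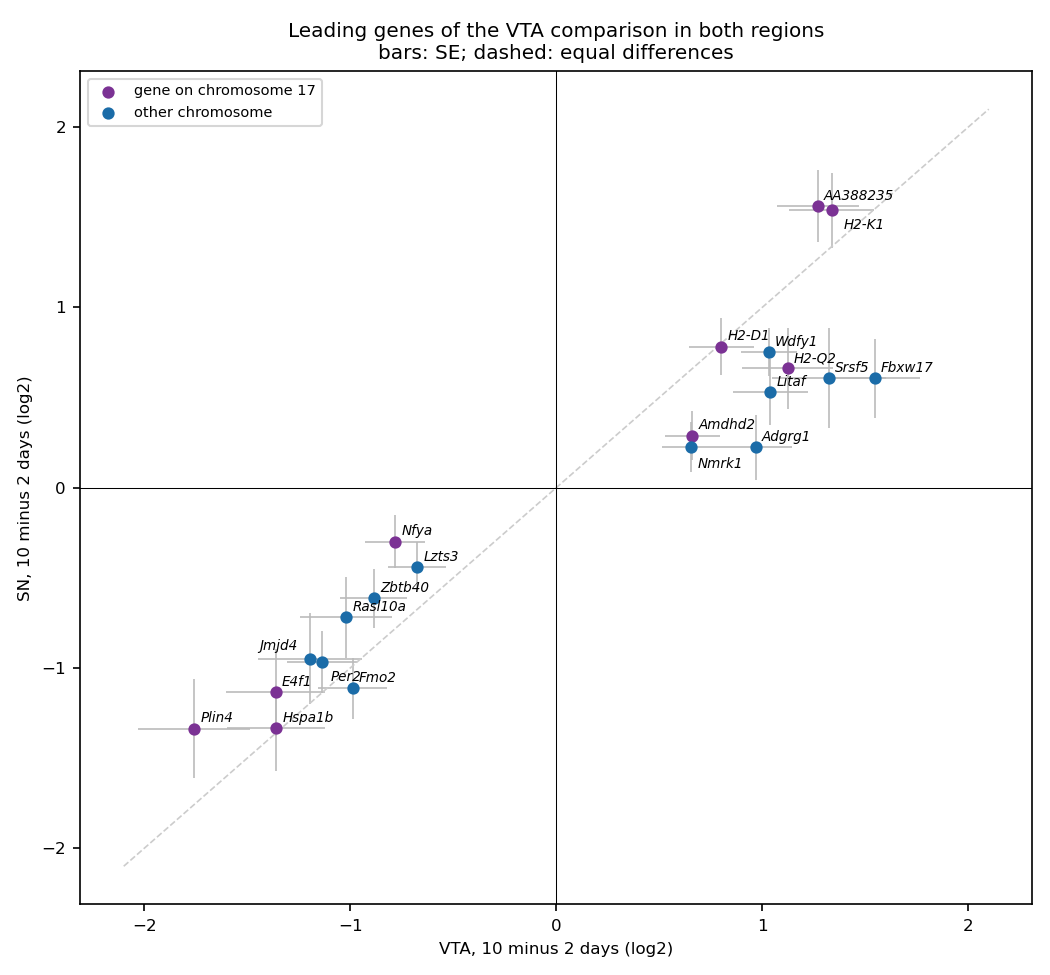
Difference between 10 and 2 days of MPTP on the log2 scale in the VTA (horizontal axis) and in the SN (vertical axis) for the genes that lead in the VTA, each point a gene with bars of ± SE, in purple on chromosome 17, and a dashed line of equal differences. All 21 genes lie on the same side of 0 in both regions, and 18 are closer to 0 in the SN.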

How the data were processed

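Labelled cDNA was hybridised to mouse arrays. Per the series' design text, the authors took log2 and applied RMA in GeneSpring GX 10.0, and the submitters' processing notes list RMA too. Checked on the deposited log2 values, the median of each of 45101 probe sets over 18 arrays is 0 to within 5e-07, so no level or detection is known and no filter on dim probe sets was applied. Background correction is not given in the sources used here, and precision is limited by how few arrays there are. Of the probe sets, 34945 carried 1 symbol in the platform's annotation, 932 several and 9211 none, and 64 were controls. Probe sets of a gene were averaged (9010 genes had several).

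Group means over all 18 arrays were fitted with limma 3.58.1 in R 4.3.3 (12 residual and 4.06 prior degrees of freedom). Tests were two-sided, with Benjamini-Hochberg adjustment over 18193 genes. Leaving-out ranges cover the 6 arrays compared. P-values measure the spread between arrays labelled as biological replicates. The fit was tested on simulated data. Members and lists were chosen with earlier results of these data known. Named genes are the leading genes each way without overlap (predicted genes skipped), 2 per list, Th, Ddc, Slc6a3, Slc18a2, Wdfy1, Capsl and 5 each way for the difference between regions. Further list members are named for contrast and, where said, after their values were seen. Alternatives were probe-set choice, normalisation, array weights, robust fitting, blocks and leaving out arrays. Promoters came from a RefSeq table of GRCm38.p6, matched by symbol. Figures used matplotlib 3.10.9.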

Additional observations from a re-analysis of the deposited data

How the results depend on the processing

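The count of 6 genes in the VTA became 10 with the probe set of largest SD per gene (5 of the 6 among them). With probe sets tested singly 16 probe sets were called, some of them of the same gene. Neither probe set of AA388235 was among them (limma, adjusted p = 0.104 and 0.587). The count of genes was 0 when only the 6 arrays compared were fitted. With each array left out it ran from 0 to 5. It was 6 after centring each array or with a robust fit, 5 after quantile normalisation (4 of the 6, with Plin4 and AA388235 lost and Fmo2 gained) and 9 with array weights, all 6 among them. The count of 3 genes in the SN became 9 after quantile normalisation, 24 with array weights and 0 with only the arrays compared. It ran from 0 to 1 with an array left out, and 9 probe sets were called when tested singly. The cause of these shifts was not tested. The difference between regions gave 0 throughout, beside 349 genes at an unadjusted p under 0.05. Whether replicate numbers pair the VTA arrays of both durations cannot be settled with 3 arrays per group. Same-numbered deviations correlated at 0.10, 0.033 and 0.077, and those of different numbers at -0.11 to 0.084. Not every array correlated best with its own number. With the replicate number as a block 4 genes were called in the VTA, of which Fbxw17 and Wdfy1 are among the 6, and 1 in the SN. A random block over same-numbered VTA and SN arrays, chosen after seeing the data, had a correlation of 0.187 and called 6 genes, 5 of them shared. Of 1665 values of 111 named genes under alternatives, 1597 kept direction and side of the threshold, 47 lost the call, 19 gained it and 2 reversed: with an array left out, Grik1 ran from -0.012 to 0.68 and Slc18a2 from -0.036 to 0.83. Of the list medians under alternatives, 454 moved by less than the spread and 22 by more.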

Other observations

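Genes of cell death and of its control were mostly on the higher side after 10 days in the VTA. Of 24 measured members of the BCL2 family, caspases and death receptors 19 were higher, with a median of 0.11. It was 0.045 when array 3 of 2 days was left out. An unadjusted p under 0.05 was reached by 3 members, all higher, beside 3.16% of all genes. Casp8, an initiator caspase gene, was at -1.42, -0.32 and -0.046 after 2 days and 0.32, 0.038 and 0.069 after 10 days. Its groups did not overlap, although array 1 of the 2 day group lay far below the others, and the difference was 0.74 ± 0.27 (SE, limma, adjusted p = 0.671). Casp12, a caspase gene of the endoplasmic reticulum in rodents, was at 0.62 ± 0.27 (SE). The 5 lower members were Bcl2 at -0.42, Pmaip1 at -0.41, Bbc3 at -0.24, Hrk at -0.22 and Bid at -0.17. In the SN 12 of the 24 members were higher, with a median of 0.0089.

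Channels and receptors showed no common direction. Pacemaking and excitability channels had a median of -0.00039 over 22 members, among which Kcnma1, the gene of the large-conductance calcium-activated potassium channel, was at -0.41 ± 0.14 and Cacna1h, of a T-type calcium channel, at -0.51 ± 0.22 (SE). Ionotropic glutamate and GABA receptors had a median of -0.063 over 23 members, with the AMPA receptor gene Gria3 at -0.47 ± 0.16 (SE). Of 34 axon guidance genes 23 were higher, with a median of 0.093, and of 26 neuropeptide genes 18 were lower, with a median of -0.096. Nmb, which encodes neuromedin B, was at -0.77 ± 0.30 (SE). Cytosolic ribosomal proteins had a median of -0.064 over 31 members, lysosome and autophagy genes 0.038 over 30, synaptic vesicle genes -0.041 over 28 and neurotrophic factors -0.0011 over 19. Except for synaptic vesicle, axon guidance and neuropeptide genes, the sign of each of these medians turned when a certain array was left out. Among other neurons, GABA neuron markers had a median of -0.047 over 11 members and markers of glutamate, serotonin and cholinergic neurons -0.093 over 9. Precursors of oligodendrocytes were at 0.11 over 8 markers and erythrocytes at -0.15 over 5. The sign turned for GABA neuron markers without array 1 of the 2 day group, and for the precursors without array 2 of that group.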
